A study of Mus musculus with 15 samples.

Results

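A set of 9 genes of proline, arginine and polyamine metabolism was followed through a mouse pancreatic ductal adenocarcinoma (PDAC) data set: Pycr1, Aldh18a1, Prodh, Oat, Ass1, Asl, Odc1, Azin1 and Sat1. They were chosen by pathway, with earlier results of these data known, and all 9 were found among the 55291 genes of the deposited tables. The series holds 15 RNA-seq samples in 5 groups of 3. HY19636 is 1 mouse PDAC line, with mutant p53 by its label, from an engineered mouse model in which Ptf1a drives Cre, and every group below consists of these cells or of tumors grown from them. Control cells grew in DMEM with serum, DON cells received 25 µM 6-diazo-5-oxo-L-norleucine (DON), a glutamine (Gln) antagonist, for 24 h, and Gln-free cells were kept for 24 h with no Gln. Orthotopic tumors grew in the pancreata of female C57BL/6J mice, 8 to 10 weeks old per the methods, that were given vehicle or 3 mg/kg of DRP-104, from which the body releases DON. Dosing was daily for 2 cycles of 5 days on and 2 days off. Nothing in the labels says whether the culture replicates were separate experiments, so their p-values measure the spread between these libraries, which may be technical.

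Glutamate, the product of Gln breakdown, is the starting point of proline synthesis. Aldh18a1 turns glutamate into an intermediate that Pycr1 reduces to proline in mitochondria, Prodh begins the reverse path by oxidizing proline, and Oat links the same intermediate to ornithine. Ass1 and Asl carry out consecutive steps that make arginine from citrulline and aspartate. Odc1 decarboxylates ornithine to putrescine, the first polyamine, Azin1 protects Odc1 from the antizymes that send it to degradation, and Sat1 acetylates spermidine and spermine for breakdown or export. Many tumor cells make proline from Gln, and PDAC cells are known for their use of Gln carbon and nitrogen.

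The 9 libraries from cells held 25.22 to 48.16 M gene reads each, and the 6 from tumors held 16.34 to 20.69 M. The deposited values are normalized counts, in which the reads of each library were scaled by its size factor within a table, so control libraries have slightly different values in the DON and the Gln-free table although the underlying reads are the same. The culture libraries carried the keratin Krt8 at 138598 to 178542 normalized counts in controls, 35699 to 37897 with DON and 54410 to 65001 without Gln. Sums of 6 epithelial markers were 328513 to 424109, 108939 to 117160 and 133321 to 146615 in the same order. The lowest of that list, Cldn4, was at 47.8 to 66.3, 2.39 to 11.8 and 2.0 to 4.18. Dcn (fibroblasts), Adgre1 (macrophages) and Cd3e (T cells) were at 0 in all 9 culture libraries. Other genes of these fibroblast, macrophage and T cell lists were present and moved with the groups. Pdgfra (fibroblast list) was at 456 to 621 normalized counts in controls, 122.95 to 154 with DON and 1059 to 1102 without Gln. Cd68 (macrophage list) was at 47.4 to 79.9, 798 to 847 and 19.6 to 33.4, and Lck (T cell list) at 36.4 to 52.5, 33.6 to 50.1 and 91.9 to 130 in the same order. Over whole lists of 6 genes, the sums in culture were 122.95 to 1110 for fibroblast, 19.6 to 847 for macrophage and 55.4 to 166 for T cell markers. Their part in the culture results was not tested. Among the tumors, DRP-104 tumor 1 stood apart, with a read in 17981 genes against 22140 to 22524 in the other 5. Control library 3 was the deepest, and its Azin1, Asl and Aldh18a1 values lay away from those of control libraries 1 and 2.

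On a scale comparable between genes (RPKM, reads scaled by gene length and library total), the levels in control cells ran from Odc1 at 183.0 ± 3.95 (SD, n = 3) through Sat1 at 72.5 ± 9.96, Oat at 44.3 ± 0.710 and Aldh18a1 at 40.8 ± 4.07 down to Asl at 21.3 ± 2.45. Azin1 followed at 11.8 ± 2.84, then Ass1 at 6.03 ± 0.103, Prodh at 4.31 ± 0.316 and Pycr1 at 3.58 ± 0.317. The ranges of Oat and Aldh18a1 overlapped, and those of the other neighbours in this order did not. In vehicle tumors Sat1 came first in RPKM, at 138 ± 7.42, and Odc1 next, at 82.6 ± 11.95. Ass1 stood at 17.8 ± 2.41 there, with a range overlapping those of Aldh18a1 (18.8 ± 3.91) and Azin1 (14.7 ± 0.853). Tumor RNA also contains host cells, so cell levels and tumor levels were not tested against each other, and in tumors fewer cells of a type and less RNA per cell cannot be told apart.

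**Figure D1:**
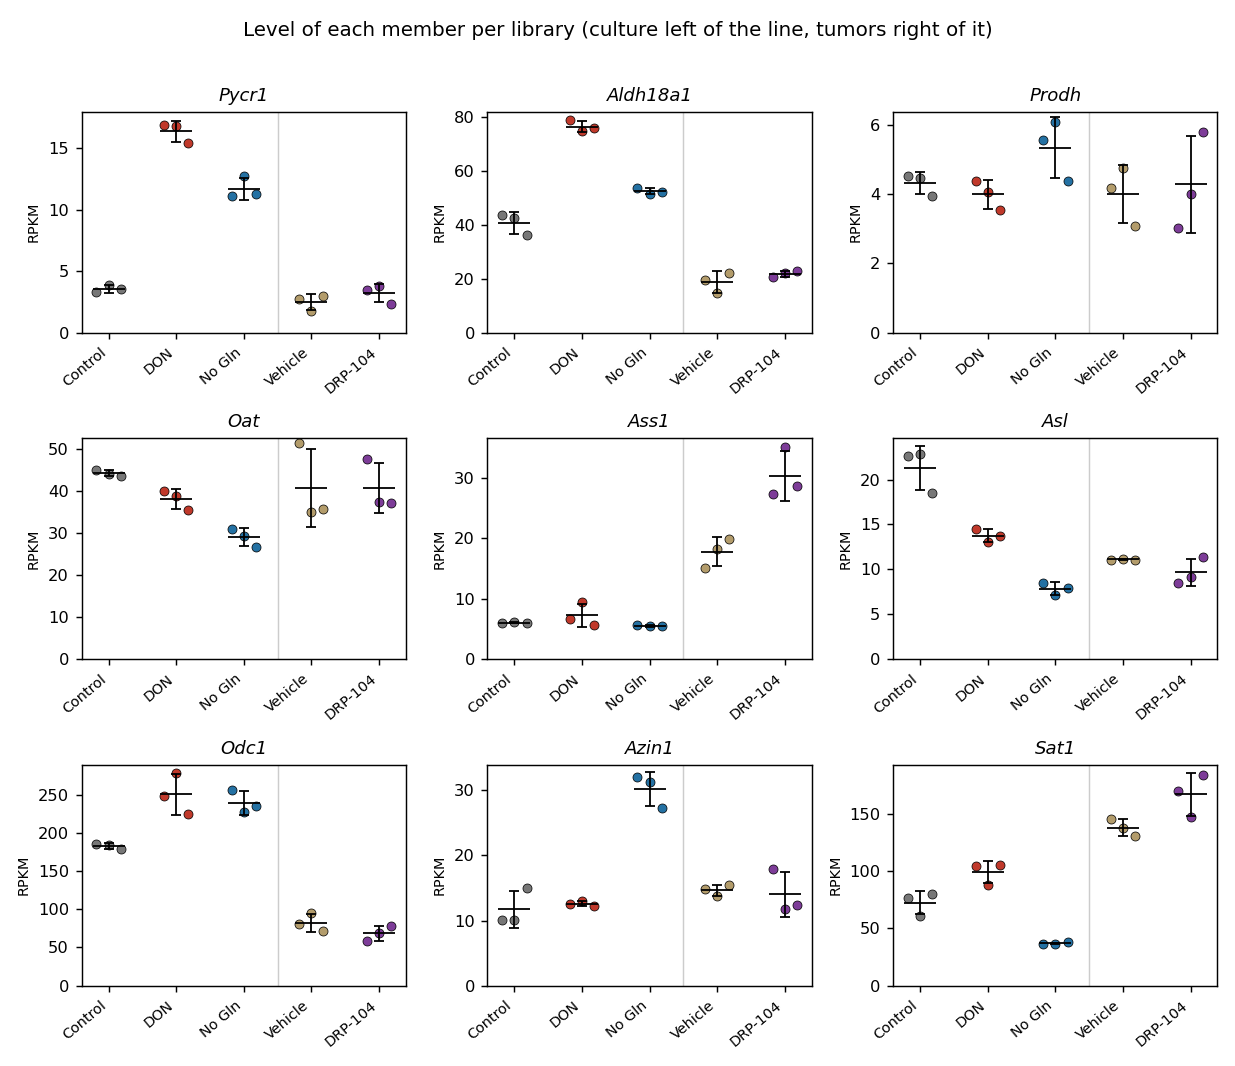
Level of each gene in RPKM (y axis, from 0) in each of the 5 groups (x axis). Points are libraries, the horizontal bar is the mean and the whiskers are the SD (n = 3). Pycr1 sits above 15 RPKM in the 3 DON libraries and below 4 in the 3 controls, Azin1 stands apart in Gln-free cells, and Ass1 is above 27 in the DRP-104 tumors and below 20 in the vehicle tumors.

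Most of the 9 genes changed in both treated cultures, as did most of all genes tested, and the 2 profiles differed. A gene was called when its adjusted p was under 0.05, with limma fitted to all 13556 genes (DON) or 13390 genes (Gln-free) with a mean of at least 10, on log2(normalized count + 1). After DON, Pycr1, Aldh18a1, Odc1 and Sat1 rose and Oat and Asl fell, so 4 of 9 were called higher and 2 lower. Over all genes 33.3% were called higher and 34.7% lower after DON, 68.1% together, so that a share of 6 in 9 was near the background. In Gln-free cells Pycr1, Azin1, Odc1 and Aldh18a1 rose and Asl, Sat1 and Oat fell, 4 higher and 3 lower, beside 34.5% and 34.9% of all genes, 69.4% together. Treated and control libraries did not overlap for 6 of the 9 genes after DON (4 higher, 2 lower), where 71.9% of all genes did not (35.3% higher, 36.6% lower). Without Gln they did not overlap for 8 of the 9 (4 higher, 4 lower), beside 73.6% of all genes (36.4% higher, 37.2% lower). On the log2 scale the 9 genes had a median difference of 0.09 with DON and of 0.19 in Gln-free cells, against 0.02 and 0.0059 over all genes tested. Without regard to sign, their median difference was 0.32 with DON and 0.72 in Gln-free cells, against 0.62 and 0.64 over all genes. Both comparisons share the 3 control libraries, and the direct test of DON against Gln-free cells is therefore given for each gene. With 3 against 3 libraries an exact two-sided permutation test of a single gene cannot give a p below 0.1, and the adjusted p-values below all come from limma.

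**Figure D2:**
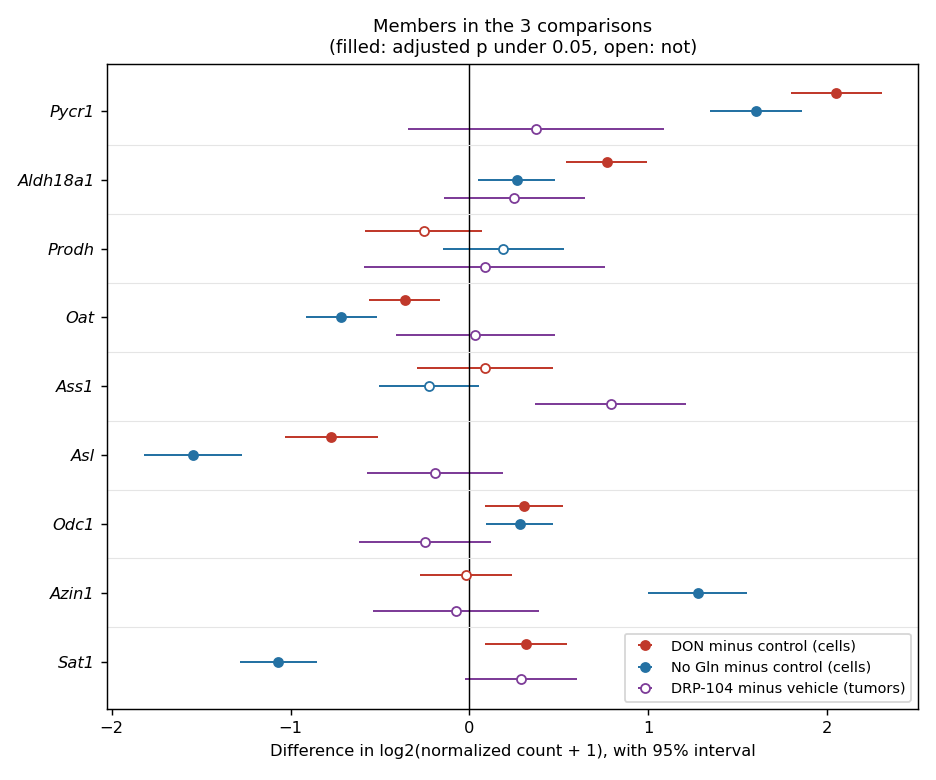
Difference of each gene in log2(normalized count + 1) (x axis) for DON minus control cells, Gln-free minus control cells and DRP-104 minus vehicle tumors, with unadjusted 95% intervals (n = 3 per group). Filled points passed an adjusted p of 0.05. Pycr1 lies at 2.05 and 1.60 in the cultures and Sat1 at 0.32 and -1.07, and no tumor point is filled.

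Pycr1 (ENSMUSG00000025140, chr11:120635712-120643769, minus strand, GRCm38) was the gene of the 9 with the highest rise in both cultures. Its normalized counts were 1485, 1469 and 1336 in the DON libraries and 327, 388 and 322 in the controls. In the Gln-free table they were 953, 1086 and 953 against 308, 367 and 310. The groups did not overlap in either table. The rise after DON was 2.05 on the log2 scale (SE 0.118, adjusted p = 2.91e-09), a 4.14-fold difference, and without Gln it was 1.60 (SE 0.120, adjusted p = 1.24e-07), or 3.03-fold. DON cells were also above Gln-free cells, by 0.48 (95% interval 0.25 to 0.71, adjusted p = 0.000997).

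Aldh18a1 (ENSMUSG00000025007, chr19:40550257-40588463, minus strand), which supplies the Pycr1 pathway from glutamate, rose less. It was measured at 8368, 7921 and 7963 normalized counts with DON and 5272, 5084 and 3991 in controls, so every DON library was above every control. In Gln-free cells it stood at 5586, 5319 and 5346 beside control values of 4968, 4802 and 3849. These groups did not overlap either, but the gap between them was smaller than the spread of the controls. The difference was 0.77 after DON (SE 0.106, adjusted p = 1.88e-05) and 0.26 without Gln (SE 0.0996, adjusted p = 0.0312). The Gln-free call was lost when any of the 3 Gln-free libraries was left out, with an adjusted p of at most 0.1031. DON against Gln-free cells gave 0.54 (95% interval 0.34 to 0.73, adjusted p = 9.68e-05).

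The start regions of these 2 genes are shown because both rose in both cultures and each holds 1 of the 2 motifs searched. The windows run from 250 bases before to 50 after the start in RefSeq on GRCm38.p6, and 7 of the 9 genes had one, all but Asl and Azin1. The motifs were TGATGNAA, the core of the C/EBP-ATF response element, and the E-box CACGTG, each searched on both strands. TGATGNAA, which is TTNCATCA on the other strand, occurs in 3.97% of all 32851 windows and CACGTG, its own reverse complement, in 7.15%. The stretches below read 5′ to 3′ on the strand of the gene, with the motif in capitals, and lie upstream of the annotated transcripts. That of Pycr1 is chr11:120643799-120643898 and begins 150 bases before the start, and that of Aldh18a1 is chr19:40588474-40588573 and begins 110 bases before it.
Pycr1: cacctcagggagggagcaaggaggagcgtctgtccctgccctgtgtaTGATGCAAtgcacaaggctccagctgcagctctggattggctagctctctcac
Aldh18a1: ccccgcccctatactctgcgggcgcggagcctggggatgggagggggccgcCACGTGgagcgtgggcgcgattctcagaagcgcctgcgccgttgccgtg
The first base of the match lies 103 bases before the start in Pycr1 and 59 bases before it in Aldh18a1. Ass1 also held CACGTG, 36 bases before its RefSeq start. That match, at chr2:31470234-31470239, lies inside the gene span given for Ass1 below, which begins at 31470207. The windows of Prodh, Oat, Odc1 and Sat1 held neither motif. A match describes these letters only and is not evidence that a factor binds there.

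Prodh (ENSMUSG00000003526, chr16:18060357-18090203, minus strand), which starts proline breakdown, was low and did not pass the test against controls in either culture. Its DON libraries were at 314, 290 and 252 normalized counts and the controls at 367, 362 and 294, and the groups overlapped. Gln-free cells were at 391, 424 and 301 beside 346, 342 and 284, again overlapping. The differences were -0.26 (adjusted p = 0.152) and 0.19 (adjusted p = 0.294). DON cells lay below Gln-free cells by 0.41 on the log2 scale, a difference of -0.41 (95% interval -0.74 to -0.09, adjusted p = 0.0283). That call was lost without DON library 3, Gln-free library 1 or Gln-free library 2 (adjusted p of up to 0.1357). Without control library 3, Prodh was called lower after DON, at -0.36 (adjusted p = 0.04525).

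Oat (ENSMUSG00000030934, chr7:132557475-132576398, minus strand), the mitochondrial aminotransferase between ornithine and the proline intermediate, fell in both cultures. DON libraries had 2600, 2513 and 2273 normalized counts and controls 3312, 3233 and 2946. Gln-free libraries had 1970, 1854 and 1670, against 3122, 3054 and 2841. No treated library reached a control in either table. Oat fell by 0.36 after DON, a log2 difference of -0.36 (SE 0.0929, adjusted p = 0.00332), and the difference without Gln was -0.72 (SE 0.0912, adjusted p = 1.44e-05). It was lower without Gln than with DON, DON minus Gln-free being 0.39 (95% interval 0.20 to 0.57, adjusted p = 0.00112).

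The 2 arginine-making enzymes behaved differently in culture. Asl (ENSMUSG00000025533, chr5:130011258-130025132, minus strand), argininosuccinate lyase, was at 1050, 946 and 983 normalized counts with DON and at 1862, 1873 and 1396 in controls. In Gln-free cells it was at 606, 502 and 552, against 1755, 1769 and 1346. Control library 3 was the lowest control and still lay above every treated library. The log2 difference was -0.77 after DON (SE 0.121, adjusted p = 6.58e-05), 1.71-fold lower, and -1.55 without Gln (SE 0.126, adjusted p = 2.68e-07), 2.92-fold lower. DON cells kept more Asl than Gln-free cells, by 0.81 (95% interval 0.56 to 1.05, adjusted p = 2.21e-05).

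Ass1 (ENSMUSG00000076441, chr2:31470207-31520672, plus strand), argininosuccinate synthase, passed the test in neither culture. It was at 339, 478 and 287 normalized counts with DON, where library 2 was the high one, and at 347, 355 and 316 in controls. In Gln-free cells its values of 286, 271 and 269 all lay below the controls of 327, 335 and 304. The log2 differences were 0.09 (95% interval -0.29 to 0.46, adjusted p = 0.676) and -0.23 (95% interval -0.51 to 0.06, adjusted p = 0.139). Non-overlap of the groups was common in this table, at 73.6% of all genes. The DON difference changed sign without DON library 2, to -0.12. DON minus Gln-free was 0.34 (adjusted p = 0.0770), and it was called without DON library 3, at 0.51 (adjusted p = 0.01558), and by edgeR, at 0.40. An annotated pseudogene, Ass-ps1, resembles Ass1, so that some reads may have been split.

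Odc1 (ENSMUSG00000011179, chr12:17544873-17551502, plus strand), the entry enzyme of polyamine synthesis, rose slightly in both cultures from a high level. Normalized counts were 19094, 21316 and 17002 with DON and 16153, 15988 and 14225 in controls. Gln-free libraries had 19261, 16941 and 17342 beside 15223, 15102 and 13719. The groups did not overlap. The log2 difference was 0.30 after DON (SE 0.102, adjusted p = 0.0165) and 0.28 without Gln (SE 0.0857, adjusted p = 0.0104). The DON call was lost without DON library 1 or 2 (adjusted p of up to 0.1055) and the Gln-free call without Gln-free library 1 (adjusted p = 0.07033). DON minus Gln-free was 0.06 (95% interval -0.14 to 0.25, adjusted p = 0.606).

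Azin1 and Sat1, which act on opposite sides of the polyamine pool, separated the cultures. Azin1 (ENSMUSG00000037458, chr15:38487430-38519266, minus strand) was at 1834, 1910 and 1765 normalized counts with DON and at 1681, 1668 and 2288 in controls, control library 3 being the high one. Gln-free libraries stood at 4591, 4452 and 3840, each above every control of that table (1585, 1576 and 2207). The log2 difference was -0.02 after DON (95% interval -0.28 to 0.24, adjusted p = 0.900) and 1.28 without Gln (SE 0.127, adjusted p = 1.64e-06), a 2.42-fold rise. Without control library 3 the DON difference was 0.13 and was still not called. DON minus Gln-free was -1.26 (95% interval -1.51 to -1.02, adjusted p = 1.58e-07). Azin1 shares 358 exon bases with the antisense gene Gm49077, and the use of strand in counting was not stated.

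Sat1 (ENSMUSG00000025283, chrX:155213132-155216449, minus strand), the polyamine acetyltransferase, was the 1 gene of the 9 called in opposite directions. How many of all genes were called in this way was not counted. DON libraries had 4246, 3577 and 4250 normalized counts against 3509, 2816 and 3390 in controls. Gln-free libraries had 1453, 1452 and 1476, close to each other and below the controls of 3307, 2660 and 3269. The rise after DON was 0.32 (SE 0.107, adjusted p = 0.0174), and it was lost without DON library 1, DON library 3 or control library 2 (adjusted p of up to 0.09181). The log2 difference without Gln was -1.07 (SE 0.0986, adjusted p = 8.17e-07), 2.10-fold lower, and no left-out library ended it. DON minus Gln-free was 1.42 (95% interval 1.21 to 1.62, adjusted p = 6.54e-09), or 2.67-fold.

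In the direct test of DON against Gln-free cells, 5 of the 9 genes were called higher with DON (Pycr1, Aldh18a1, Oat, Asl and Sat1) and 2 lower (Prodh and Azin1). Of all 13514 genes tested, 31.0% were called higher and 32.3% lower, 63.3% together. Libraries of the 2 groups did not overlap for 6 of the 9 genes (5 higher, 1 lower), beside 71.7% of all genes (35.3% higher, 36.4% lower). Odc1 and Ass1 did not pass, which does not show that they were alike. By size, Sat1 at 1.42 and Azin1 at -1.26 led the 9 genes, and the median absolute difference over all genes was 0.53.

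**Figure D3:**
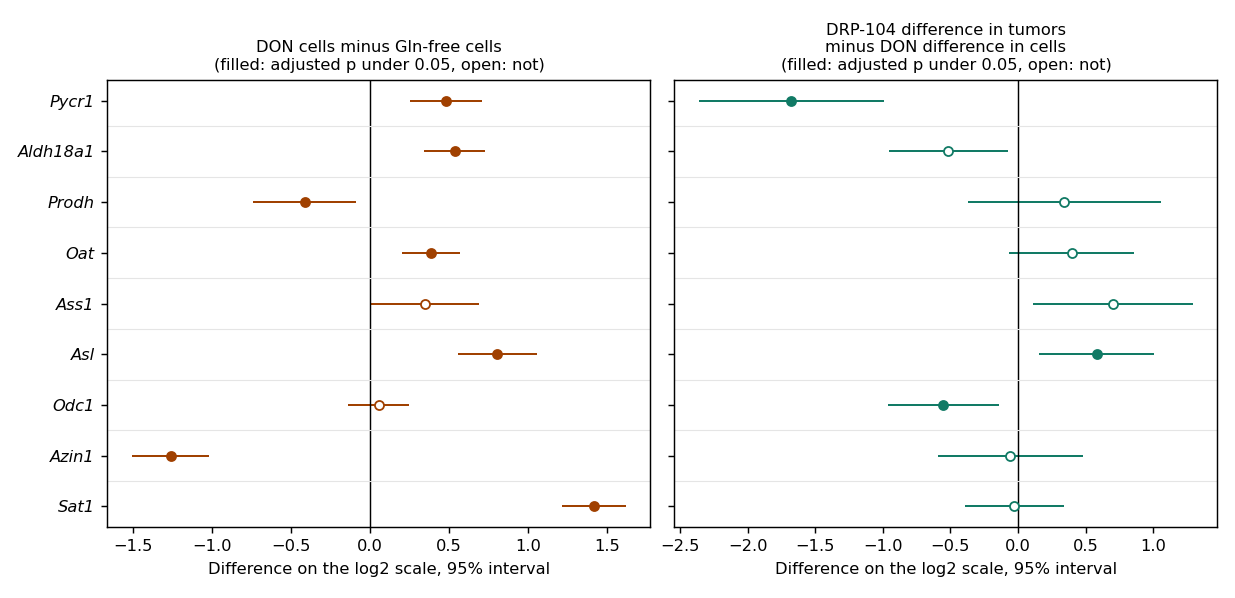
Left, DON cells minus Gln-free cells for each gene, on the log2 scale. Right, the DRP-104 difference in tumors minus the DON difference in cells. Points are estimates with unadjusted 95% intervals (3 libraries per group) and are filled at an adjusted p under 0.05. Sat1 (1.42) and Azin1 (-1.26) lie farthest apart on the left, and Pycr1 (-1.68) lies farthest from 0 on the right.

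In the orthotopic tumors none of the 9 genes passed the test between DRP-104 and vehicle, and neither did any of the 15454 genes tested (0% called by limma, smallest adjusted p 0.816). At an unadjusted p under 0.05 limma listed 775 of the 15454 genes, or 5.01%, about the share that such a threshold passes with no difference at all, and DESeq2 on recovered reads called 71, 29 higher and 42 lower, with none of the 9 genes among them. Ass1 showed the widest gap of the 9 genes. It was at 918, 1122 and 880 normalized counts in DRP-104 tumors and at 463, 592 and 640 in vehicle tumors, so the groups did not overlap. The difference was 0.79 on the log2 scale (SE 0.183, 95% interval 0.37 to 1.21), or 1.73-fold, with an unadjusted p of 0.00245 and an adjusted p = 0.916 by limma. Across the alternatives its adjusted p ran from 0.09975 (DESeq2) to 0.9996. Without DRP-104 tumor 1 the Ass1 difference was 0.83 (adjusted p = 0.702).

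Sat1 was the other gene without overlap, at 4539, 3751 and 4515 normalized counts against 3536, 3567 and 3342, a difference of 0.29 (95% interval -0.02 to 0.60, adjusted p = 0.916). Groups did not overlap for 10.6% of all genes in the tumors, 4.83% higher and 5.75% lower. The FPKM table has columns of the same treatments that could not be matched to these tumors. Whether they are the same tumors is not known, and that table gave other values. There Ass1 was at 34.0, 23.7 and 42.5 FPKM with DRP-104 and at 29.0, 20.4 and 26.8 with vehicle. These ranges overlapped, and the difference was 0.36 (adjusted p = 0.634). Sat1 in that table was at 80.4, 116 and 134 FPKM with DRP-104 and at 132, 128 and 140 with vehicle, with a difference of -0.30, the reverse of the normalized counts.

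Pycr1, the gene with the highest rise in culture, was at 199, 208 and 125 normalized counts in DRP-104 tumors and 144, 100 and 165 in vehicle tumors. The groups overlapped, and the difference was 0.37 (95% interval -0.34 to 1.09, adjusted p = 0.924). Aldh18a1 was at 1431, 1468 and 1465 against 1245, 986 and 1486, with overlap through vehicle tumor 3, and differed by 0.25 (95% interval -0.14 to 0.64). Odc1 was at 2972, 3313 and 3616 against 3686, 4665 and 3464, a difference of -0.25 (95% interval -0.62 to 0.12). Asl was at 406, 415 and 499 against 481, 516 and 506, overlapping through DRP-104 tumor 3, and differed by -0.19 (95% interval -0.57 to 0.19). Prodh, Oat and Azin1 differed by 0.09, 0.03 and -0.07, and all 3 had overlapping groups.

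Sums of cell-type markers in the same tumors were set side by side without a test. The summed normalized counts of 6 fibroblast markers were 12043 to 21214 in DRP-104 tumors and 25810 to 49067 in vehicle tumors, and those of 4 endothelial markers were 1085 to 1528 against 1757 to 2009, without overlap of either sum. Taken singly, Col1a1, Col1a2, Pdgfra, Pecam1 and Cdh5 did not overlap between the groups, and Dcn, Lum, Pdgfrb, Kdr and Emcn did. By staining, the paper reported no significant change in fibroblast subsets with DRP-104. Macrophage markers (6 genes) ran from 4748 to 10356 and from 6473 to 9062, and epithelial markers (6 genes) from 110215 to 145884 and from 98162 to 140137, both overlapping. The 6 T cell markers reached 1211 in DRP-104 tumor 3 and lay at 40.4 to 88.5 in the other 5 tumors. The 6 acinar markers ran from 178 to 867 with DRP-104 and from 147 to 2443 with vehicle. The part of these cell types in the values of Ass1, Sat1 and the other genes was not tested.

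The difference between the prodrug in tumors and DON in cells was tested as 1 contrast over 12 libraries, each effect being taken within its own table. Of the 9 genes 3 were called, 1 higher and 2 lower, among 33.1% of all 15070 genes (19.1% higher, 14.0% lower). Pycr1 differed by -1.68 (95% interval -2.36 to -0.99, adjusted p = 0.00129), the rise of 2.05 in cells standing beside 0.37 in tumors. Asl differed by 0.58 (adjusted p = 0.0382), from -0.77 in cells and -0.19 in tumors. Odc1 differed by -0.55 (adjusted p = 0.0405), from 0.30 and -0.25. The Pycr1 call held under each library left out, with an adjusted p of at most 0.005066. The Asl and the Odc1 call were each lost in 8 of the 12 fits that left out 1 library. Agent, dose, time, route and host cells all change together in this contrast and cannot be told apart.

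Other genes of the same pathways were taken from a list of 48 that the tables hold. After DON 35 had a mean of at least 10, of which 8 rose, 17 fell and 10 did not pass. Without Gln 36 were tested, and 11 rose, 19 fell and 6 did not pass. Of all genes, 33.3% were called higher and 34.7% lower after DON, and 34.5% and 34.9% without Gln. A count for this list or for 1 of its groups, which hold 3 to 7 tested genes, is therefore given as a description. In tumors none of 40 was called by limma or by DESeq2. The median difference of the list was -0.29 after DON and -0.35 without Gln, against medians near 0 over all genes (0.02 and 0.0059).

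Among the other proline genes (6 tested), 1 rose and 3 fell after DON, and 4 fell and none rose without Gln. P4ha1, a prolyl hydroxylase subunit that acts on collagen, rose after DON, from 2095, 2300 and 2067 normalized counts in controls to 2716, 2808 and 2660. Without Gln it fell to 1086, 1055 and 1074, beside controls at 1974 to 2173 in the Gln-free table. The differences were 0.34 (adjusted p = 0.00364) and -0.93 (adjusted p = 1.03e-06). P4ha3, of the same family, had few reads, 14, 30 and 20 in controls and 2, 0 and 0 with either treatment. Its ratio to control was 0.0315 after DON (95% counting interval 0.00373 to 0.118) and 0.0351 without Gln (0.00416 to 0.132).

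In the arginine and urea cycle list 4 of 13 genes reached the minimum, and all 4 fell after DON while 3 fell and 1 rose without Gln. Gamt, which makes creatine from an arginine-derived precursor, went from 449, 410 and 327 normalized counts in controls to 83.6, 68.3 and 76.4 with DON, a difference of -2.35 (adjusted p = 6.42e-08). Without Gln it was at 41.8, 57.8 and 30.03, beside controls at 316 to 423 in the Gln-free table, with a difference of -3.13 (adjusted p = 1.48e-07). Ddah1, which breaks down methylated arginine, fell after DON (-1.09, adjusted p = 0.000314) and rose without Gln (0.54, adjusted p = 0.0241).

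Of the arginine and ornithine carriers, 1 of 4 tested rose after DON and 3 of 5 without Gln, and 1 fell in each. Slc7a1, the main cationic amino acid transporter, was at 15434, 16301 and 16971 normalized counts with DON, beside 5672 to 6615 in controls of the DON table. Without Gln it was at 14782, 15090 and 14086, beside 5470 to 6249 in controls of the Gln-free table. It rose by 1.41 (adjusted p = 7.86e-09) and 1.33 (adjusted p = 2.16e-08), and DON minus Gln-free was 0.11 (adjusted p = 0.231). Its relative Slc7a2 was near the minimum, with 18, 22 and 42 reads without Gln and 8, 8 and 10 in controls, a difference of 1.56 (adjusted p = 0.00945).

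Polyamine synthesis genes (7 tested) had 1 rise and 3 falls after DON and 4 rises and 2 falls without Gln. Amd1, which supplies the aminopropyl donor of spermidine and spermine, was at 3081, 3081 and 3034 normalized counts with DON, below the controls of 3628, 3558 and 3952. In Gln-free cells it was at 6923, 6605 and 6666, above 3419, 3361 and 3812. The differences were -0.27 (adjusted p = 0.0110) and 0.93 (adjusted p = 5.14e-07). Reads of Amd1 can be shared with its close copy Amd2. Mtap, which salvages methionine from the by-product of polyamine synthesis, had -0.82 (adjusted p = 1.47e-06) and 0.22 (adjusted p = 0.0237).

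The 3 polyamine control genes tested, the antizymes Oaz1 and Oaz2 and the Azin1 relative Azin2, all fell without Gln, while after DON 1 rose, 1 fell and 1 did not pass. Oaz2 was at 3027, 2845 and 2939 normalized counts with DON, beside controls at 2230 to 2675. Without Gln it was at 1302, 1398 and 1500, beside controls at 2151 to 2527 in the Gln-free table. Its differences from control were 0.27 after DON (adjusted p = 0.0211) and -0.73 without Gln (adjusted p = 1.97e-05). Azin2 had 4, 0 and 6 reads without Gln and 18, 19 and 34 in controls (-2.78, adjusted p = 0.00457). Oaz1 differed from control by -0.26 after DON (adjusted p = 0.0388) and by -1.03 without Gln (adjusted p = 9.57e-07). Without Gln, then, both antizymes fell, and of the 2 antizyme inhibitors Azin1 rose and Azin2 fell.

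Polyamine breakdown and transport genes (7 tested) included 2 rises and 4 falls after DON and 2 rises and 5 falls without Gln. Slc3a2, the heavy chain of several amino acid exchangers, which has also been linked to polyamine export, was at 22104, 25403 and 21976 normalized counts with DON and 7039, 6714 and 5833 in controls, a rise of 1.83 (adjusted p = 1.58e-09). Without Gln Slc3a2 also rose, by 1.02 (adjusted p = 3.92e-07). Atp13a3, a polyamine transporter, rose by 1.27 without Gln (adjusted p = 4.07e-06) and by 0.48 after DON (adjusted p = 0.00569). Slc18b1, a vesicular polyamine transporter, fell in both cultures, by -1.83 after DON (adjusted p = 1.13e-07) and -1.77 without Gln (adjusted p = 8.63e-07). In the list of hypusine genes (4 tested), which use spermidine to modify Eif5a, 2 rose and 1 fell after DON and 1 rose and 1 fell without Gln. Dohh rose after DON (0.61, adjusted p = 0.000295) and differed by -0.09 without Gln (adjusted p = 0.535). Dhps rose after DON (0.52, adjusted p = 0.00166) and fell without Gln (-0.32, adjusted p = 0.0353). Eif5a itself fell after DON (-1.15, adjusted p = 2.05e-07), 2.23-fold lower, and differed by 0.13 without Gln (adjusted p = 0.222). Its relative Eif5a2 differed by -0.30 after DON (adjusted p = 0.213) and rose without Gln (1.15, adjusted p = 8.09e-05). Of the 35 other genes tested in both cultures 6 were called in opposite directions, P4ha1, Ddah1, Amd1, Mtap, Oaz2 and Dhps. The share of all genes called in opposite directions was not counted, so this number is a description only.

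**Figure D4:**
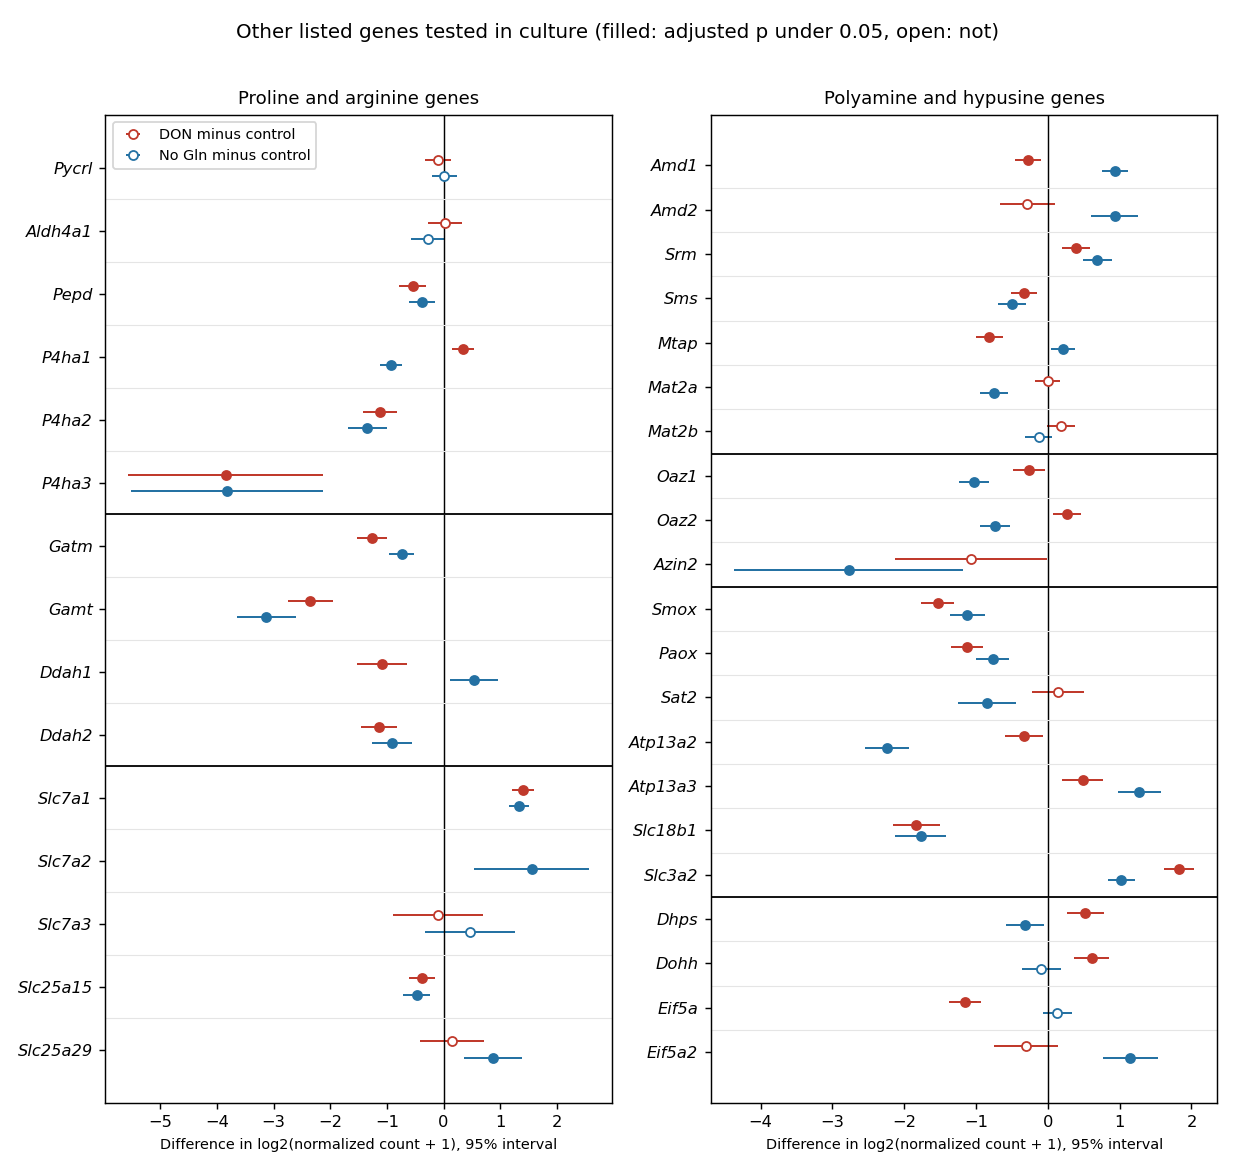
Difference from control in log2(normalized count + 1) (x axis, unadjusted 95% interval, 3 libraries per group) for the other listed genes tested in culture. Black lines separate the lists, and filled points passed an adjusted p of 0.05. P4ha1, Amd1 and Oaz2 have their 2 points on opposite sides of 0, and Slc7a1 has both above it, at 1.41 and 1.33.

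The genes whose pattern over the 9 culture libraries was closest to that of Pycr1, Ass1, Odc1 and Sat1 are given as a description, among 10431 genes with a mean of at least 100. The points share libraries and groups, so they are not independent. Pearson's r with Pycr1 was 0.9945 for Cln8, 0.994 for 2410006H16Rik and 0.9939 for Flcn. Sat1 was followed most closely by Naxd (0.9922), Mapk8ip1 (0.9913) and Wdr48 (0.9863). For Odc1 the closest were Trir (0.9521), Umps (0.9391) and Tox4 (0.9275), and for Ass1 they were Mrps34 (0.8839), Toe1 (0.8701) and E2f4 (0.8553).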

How the data were processed

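RNA-seq was performed on 9 culture and 6 tumor samples. Per the methods, Novogene made the libraries, aligned reads with HISAT2 and ran DESeq2. The submitters' processing notes also name CASAVA, STAR 2.5 and GRCm39. The counting tool, annotation and strand setting are not given in the sources used here. In the 3 tables of comparisons the authors deposited a signal, reads per gene scaled by a size factor that is specific to each library and table. Whole reads were recovered with a tolerance of 0.0051, for at least 99.9964% of values per library. Control columns of the culture tables are headed as vehicle, and were assigned to the control group, not to single samples. The authors' FPKM table covers tumors only. Its coordinates are those of GRCm38 (72.25% of 34490 genes equal to GENCODE M21, ends of the 9 genes at most 4115 bases apart), and its gene lengths gave RPKM. It was matched to groups only. A second tumor table with the same content and other FPKM tables were not used, nor were any fold changes or p-values of the authors.

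Tests used limma 3.58.1 (trend, R 4.3.3) on log2(value + 1) for genes with a mean of at least 10, with Benjamini-Hochberg adjustment over all of them and a threshold of 0.05. DON against Gln-free cells used recovered reads of the 9 culture libraries on 1 median-of-ratios scale. Scripts were tested on simulated data. The alternatives were edgeR 4.0.16, DESeq2 1.42.0, quantile normalization, other pseudocounts (0.5 and 5), filters and thresholds, library weights, a replicate block, all culture libraries in 1 fit, the FPKM table and each library left out. Of the other pathway genes, the 3 called with the largest rise and the 3 with the largest fall in each culture and every gene called in opposite directions are named, with Oaz1, Eif5a and Eif5a2 added after their values were seen. The 9 genes, the lists and the motifs were chosen with earlier results of these data known. A gene of the pathway lists and part of the line's genotype are not reported here. Intervals on reads cover counting error only.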

Additional observations from a re-analysis of the deposited data

Results flagged for a closer look

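For 3 of the 9 genes the DRP-104 difference in tumors and the DON difference in cells were called different in limma's test over 12 libraries. The tumor difference minus the cell difference was -1.676 for Pycr1, 0.5804 for Asl and -0.552 for Odc1 on the log2 scale. The Pycr1 call held with any 1 library left out. The Asl and the Odc1 call were each lost in 8 of those 12 fits. Every DON library was above every control library for Pycr1, and the fitted difference was 4.14-fold. Its tumor groups overlapped. Of all genes tested 33.1% were called in this contrast. The tumors hold host cells, and fibroblast and endothelial marker sums did not overlap between their groups. Their part in these differences was not tested. No group had more than 3 samples, so single samples were not tested for standing apart.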

How the results depend on the processing

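Pycr1, Oat and Asl in both cultures, Aldh18a1 after DON, and Azin1 and Sat1 without Gln kept their direction and their call in every alternative run. At a threshold of 0.01, Odc1 and Sat1 after DON and Aldh18a1 and Odc1 without Gln were no longer called. In tumors DESeq2 called 71 genes where limma, edgeR and the other alternatives called 0, and the cause was not tested. The signs that changed were all of uncalled values. Azin1 after DON was 0.0452 under quantile normalization, and in the FPKM table Oat and Sat1 in tumors were -0.11 and -0.30. The FPKM columns could not be matched to single tumors, so these 2 changes need not come from processing. With 1 library left out at a time, Ass1 after DON ranged from -0.12 to 0.25 and Azin1 from -0.10 to 0.13. In tumors the ranges were -0.12 to 0.19 for Oat, -0.30 to 0.0438 for Azin1 and -0.13 to 0.27 for Prodh. DON minus Gln-free ranged from -0.0266 to 0.14 for Odc1, and tumors minus cells from -0.11 to 0.0709 for Sat1 and from -0.28 to 0.0620 for Azin1. Of the 9 genes, 4 to 7 were then called after DON, 5 to 7 without Gln, 6 to 7 between the cultures, 0 in tumors and 1 to 3 for tumors minus cells. Over all genes the same fits called 8344 to 9660, 8460 to 9683, 7773 to 9104, 0 and 4016 to 5403, in the same order. For tumors minus cells, 1 of the 9 was called without DON library 1, control library 1 or control library 2. Asl was not called there with library weights (adjusted p = 0.06217).

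Deviations from the group mean in samples of the same number correlated at 0.083 or less, and at -0.365 to 0.0379 in tumors. Between samples of different numbers the correlation reached 0.0968 in culture and 0.46 in tumors. Control columns were matched to the group only and each group has 3 libraries, so this check cannot decide whether samples were paired. With the replicate block 9216 genes were called after DON, 9056 without Gln, 8456 between the cultures and 0 in tumors, with 6, 7, 7 and 0 of the 9 genes. The median residual SD over all genes was 0.32 in tumors and 0.16 in each culture comparison, with 3 libraries a group, so tumor differences carried wider intervals.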
